A study of Mus musculus with 18 samples.

Results

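The comparison described here is the diet by PFNA interaction in mouse liver: the difference between PFNA and control on a high-fat diet minus the same difference on a low-fat diet. It used 12 of the 18 arrays of the series, chosen by the diet and compound named in the sample titles, with 3 biological replicates in each of 4 groups. These were PFNA on the high-fat diet, the high-fat control, PFNA on the low-fat diet and the low-fat control. All mice were C57BL6 males, aged 6 weeks at the start and 18 weeks at the end of 12 weeks of feeding. The high-fat diet took 45% and the low-fat diet 10% of its energy from fat, and the PFNA groups received perfluorononanoic acid, a fully fluorinated fatty acid, together with the diet. The dose is not given in the sources used here, nor is it stated whether each array holds RNA of a single mouse, so p-values measure the spread between these samples. Of the series, the question addressed is whether the fat content of the diet altered the response of the liver to the compound. The other 6 arrays, from mice given PFOS on either diet, entered the fit only for its estimate of the spread.

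Perfluorinated acids resemble fatty acids in shape and resist breakdown, and the liver is one of their main places of storage. In rodents they activate PPARA, the nuclear receptor that switches on fatty acid oxidation and is also driven by dietary fat, and CAR and PXR, the receptors that induce enzymes clearing foreign compounds, with Cyp2b10 and Cyp3a11 as their standard markers in mice. Dietary fat and cholesterol also set the activity of SREBF2, the transcription factor that drives the enzymes of cholesterol synthesis. A diet by compound interaction in such genes would mean that the compound shifted their RNA by different amounts on the 2 diets.

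Values are log2 signals, 1 per probe and array, and the base 2 is taken from their range, as the labels do not state it. Median signals lay between 4.43 and 4.59 over the 18 arrays. The RNA had the markers of liver: the 11 measured hepatocyte markers had mean signals of 9.62 to 13.9, with Alb, the serum albumin gene, the highest. Replicate 3 of PFNA on the high-fat diet stood apart from the other 11 arrays of the 4 groups on the first principal component, which held 17.9% of the variance, with a score of 32.4 against scores of −22.9 to −8.08. Similar scores belonged to the high-fat PFOS group (27.8 to 38.6) and to low-fat PFOS replicate 3 (32.9). Many values that rest on this array are given with and without it, but not all.

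No gene had a diet by PFNA interaction that passed the test. Of 34472 probes, 0 were called (0%) at an adjusted p under 0.05 with limma, and the lowest adjusted p was 0.938. Without adjustment, 1786 probes (5.18%) had p under 0.05, where 1724 would fall by chance if all were independent and unaffected. Of these, 845 (2.45% of all probes) had an interaction above 0, meaning a difference more positive on the high-fat diet, and 941 (2.73%) had one below 0. The count of called probes was also 0 in each of the 12 fits that left out 1 array and in each of the 8 other settings tried, where the lowest adjusted p lay between 0.125, without replicate 1 of the high-fat control, and 0.999, without replicate 3 of PFNA on the low-fat diet.

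The fit could show an interaction only if it was large. The median standard error of the interaction was 0.24, and the median 95% interval reached 0.51 to each side of the estimate, or 0.46 among the 13981 probes with a mean signal of at least 5. The central 90% of all estimates spanned −0.48 to 0.47, with a median of 0.00, and 290 probes (0.841%) had an estimate over 1 in size. An uncalled interaction therefore does not show that a gene responded alike on both diets. The intervals below are 95% intervals for 1 probe at a time, not adjusted for the number of probes. Many belong to genes picked for a small p or a large interaction, and for such genes they do not bound the true difference. An interval that leaves out 0 is not a call.

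The responses on the separate diets gave some calls. PFNA against control had 39 called probes on the high-fat diet (0.113% of those tested), 30 higher (0.087%) and 9 lower (0.0261%). On the low-fat diet it had 195 (0.566%), 129 higher (0.374%) and 66 lower (0.191%). Unadjusted p-values under 0.05 were found for 9.77% of probes on the high-fat diet and 12.9% on the low-fat diet. The unequal counts are no test of an interaction, and both counts depended on single arrays: the high-fat count was 9 without replicate 1, and 15 without replicate 2, of the high-fat PFNA group, and 21 and 24 without replicates 2 and 3 of the high-fat control. The low-fat count was 86, 84 and 26 without replicates 1, 2 and 3 of the low-fat PFNA group, and 63, 45 and 127 without those of the low-fat control. With each array centred on its median, 78.8% of the low-fat calls were higher, against 66.2% as reported, and in a fit of only the 12 arrays 54.3% of the low-fat and 66.7% of the high-fat calls were higher, against 66.2% and 76.9%. Without high-fat PFNA replicate 3 alone, the counts were 31 on the high-fat diet and 278 on the low-fat diet. Without replicate 3 of PFNA on the high-fat diet and replicate 3 of PFOS on the low-fat diet, the counts were 148 on the high-fat diet and 593 on the low-fat diet.

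Across probes the PFNA difference on the high-fat diet and that on the low-fat diet, which share no arrays, had a Pearson correlation of 0.38 (Spearman 0.28) over all 34472 probes. It was 0.55 (Spearman 0.47) over the probes with a mean signal of at least 5. These describe probes of the same arrays, and probes are not independent replicates. On both diets 22 probes were called, 18 higher (0.0522%) and 4 lower (0.0116%), and all 22 moved the same way. They made up 56.4% of the high-fat calls and 11.3% of the low-fat calls. Of the 17 probes called on the high-fat diet alone, 16 had a difference of the same sign on the low-fat diet, and of the 173 called on the low-fat diet alone, 162 had the same sign on the high-fat diet. Among all 34472 probes, the differences on the 2 diets had opposite signs for 14026.

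Genes called on both diets came first from the clearance of foreign compounds. Cyp2b10, a cytochrome P450 and the standard marker of CAR in mouse liver, had signals of 10.63, 9.75 and 7.70 in the high-fat PFNA arrays, against 3.92, 3.88 and 4.49 in the high-fat controls. It had 9.44, 10.34 and 9.91 in the low-fat PFNA arrays, against 4.58, 3.81 and 4.17 in the low-fat controls. Every PFNA array was above every control array on both diets, and the lowest PFNA value belonged to the divergent replicate 3. Cyp2b10 rose by 5.26 (SE 0.67; limma, adjusted p = 0.00193) on the high-fat diet and by 5.71 (SE 0.67, adjusted p = 0.00125) on the low-fat diet. Its interaction was −0.45, with a 95% interval of −2.45 to 1.56, and 0.38 without high-fat PFNA replicate 3. Both calls held without each of the 12 arrays in turn, with highest adjusted p-values of 0.0216 and 0.0137.

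The proximal promoter of Cyp2b10 is shown because this gene had the largest response shared by the diets. It is the RefSeq sequence of build GRCm38.p6, from 250 bases before to 50 bases after the gene's start, on the gene's own strand, and capitals mark matches on either strand to the motifs TCACNCCAC, the form of a sterol regulatory element, CCAAT, and AGGTCA, the half-site that nuclear receptors bind.
Cyp2b10 (chr7:25897408-25897707, plus strand): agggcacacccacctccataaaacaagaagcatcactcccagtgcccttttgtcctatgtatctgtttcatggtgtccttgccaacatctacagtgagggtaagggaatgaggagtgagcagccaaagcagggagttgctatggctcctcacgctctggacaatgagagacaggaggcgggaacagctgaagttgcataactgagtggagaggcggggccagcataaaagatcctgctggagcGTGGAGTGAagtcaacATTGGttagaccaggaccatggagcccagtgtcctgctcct
The window held 1 match to TCACNCCAC, 1 to CCAAT and 0 to AGGTCA. Sequence beyond the window was not searched, and neither a match nor its absence shows how the gene was induced. Among all 32851 promoters of the table, 1.24% held TCACNCCAC, 37.4% CCAAT and 16.3% AGGTCA, and among the 39 promoters of 34 CAR and PXR targets the shares were 7.69%, 41% and 38.5%.

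Cyp2c55, another P450 induced through CAR and PXR in mice, had signals of 8.55, 8.52 and 6.44 in the high-fat PFNA arrays, against 4.58, 4.86 and 4.90 in the high-fat controls. It had 7.43, 8.40 and 8.08 in the low-fat PFNA arrays, against 3.87, 4.20 and 4.69 in the low-fat controls. The groups did not overlap on either diet, and replicate 3 of the high-fat PFNA group was again its lowest. Cyp2c55 rose by 3.06 (SE 0.47; limma, adjusted p = 0.0103) on the high-fat diet and by 3.72 (SE 0.47, adjusted p = 0.00196) on the low-fat diet. The interaction was −0.66 (95% interval −2.05 to 0.73), and 0.04 without high-fat PFNA replicate 3. The high-fat call was lost without high-fat PFNA replicate 1 or replicate 2 (highest adjusted p = 0.086).

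Gsta4, a glutathione transferase that removes products of lipid peroxidation, had 9.33, 9.48 and 9.28 in the high-fat PFNA arrays, against 8.60, 8.40 and 8.72 in the high-fat controls. It had 9.43, 9.18 and 9.60 in the low-fat PFNA arrays, against 7.99, 8.07 and 8.14 in the low-fat controls. The PFNA groups of the 2 diets overlapped, whereas every high-fat control was above every low-fat control. Gsta4 rose by 0.79 on the high-fat diet (SE 0.14; limma, adjusted p = 0.0405) and by 1.34 on the low-fat diet (SE 0.14, adjusted p = 0.000536), with an interaction of −0.55 (95% interval −0.98 to −0.12, limma adjusted p = 0.942). Its high-fat call held in only 2 of the 12 fits without 1 array, those without low-fat PFNA replicate 2 and replicate 3, and reached an adjusted p of 0.154, while its low-fat call held in all 12. Cyp3a11, the marker of PXR, had nearly equal differences of 1.21 on the high-fat diet and 1.17 on the low-fat diet, of which only the low-fat one passed the test (limma, adjusted p = 0.055 and 0.0324), and an interaction of 0.04 (95% interval −0.68 to 0.76). That low-fat call was lost without any single array of the low-fat groups (highest adjusted p = 0.14), and Cyp3a11 shares sequence with other Cyp3a genes.

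**Figure D1:**
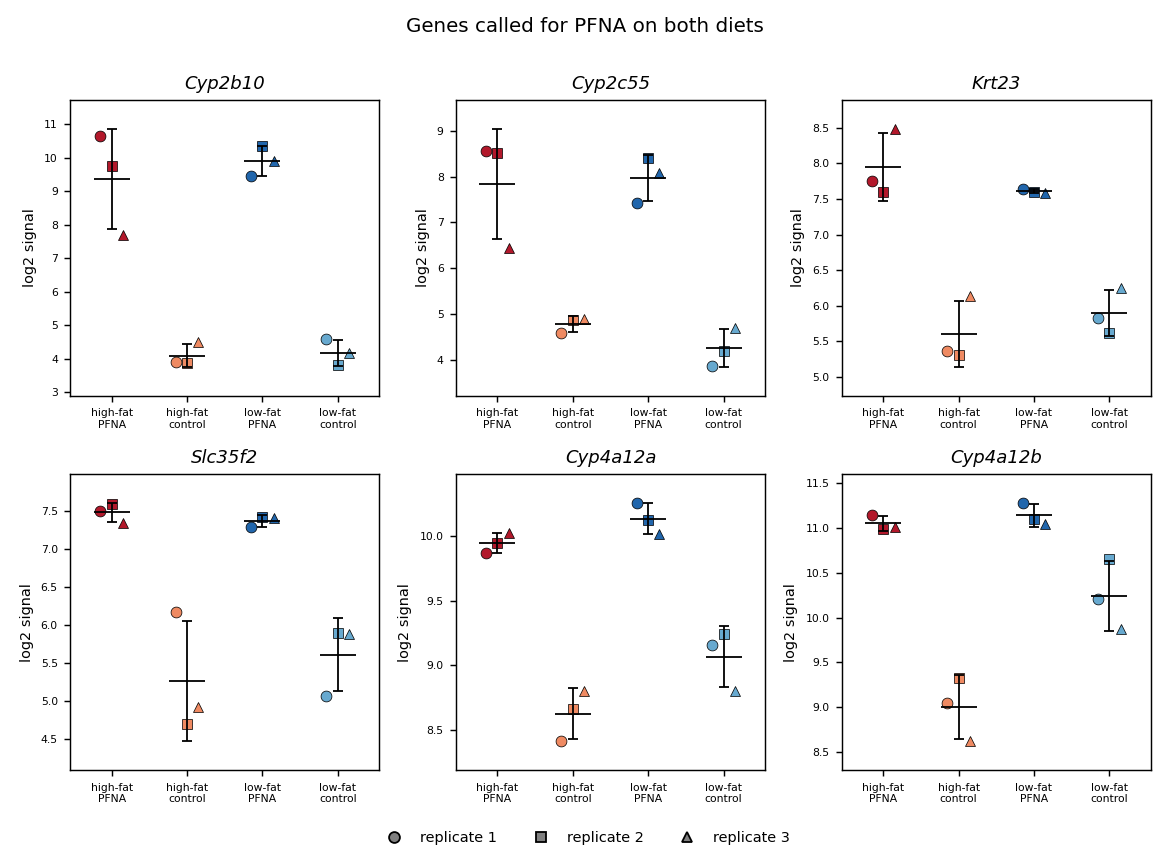
Log2 signal of 6 genes called for PFNA on both diets, by group. Points are single arrays, with the shape giving the replicate number, and bars are the mean and SD of 3 arrays. PFNA arrays lie above the control arrays on both diets in every panel, and the control arrays of Cyp4a12b are apart between the diets.

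A pair of genes listed here as PPARA targets was also called on both diets. Cyp4a14, a standard PPARA marker, was called on neither (limma, adjusted p = 0.0824 on the high-fat diet and 0.643 on the low-fat diet). The list of male-predominant liver genes also had 2 of 21 members called higher on each diet. Cyp4a12a, a male-predominant fatty acid hydroxylase, had 9.87, 9.95 and 10.03 in the high-fat PFNA arrays, against 8.41, 8.66 and 8.80 in the high-fat controls. It had 10.26, 10.13 and 10.02 in the low-fat PFNA arrays, against 9.16, 9.24 and 8.80 in the low-fat controls. It rose by 1.33 (SE 0.14; limma, adjusted p = 0.000335) on the high-fat diet and by 1.07 (SE 0.14, adjusted p = 0.00203) on the low-fat diet, without overlap of the groups, and both calls held without each of the 12 arrays. The interaction was 0.26 (95% interval −0.15 to 0.66).

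Its close copy Cyp4a12b had 11.15, 10.99 and 11.01 in the high-fat PFNA arrays, against 9.05, 9.33 and 8.62 in the high-fat controls. It had 11.28, 11.10 and 11.04 in the low-fat PFNA arrays, against 10.21, 10.65 and 9.87 in the low-fat controls. The PFNA groups overlapped between the diets, and the high-fat controls were all below the low-fat controls. Cyp4a12b rose by 2.05 on the high-fat diet (SE 0.19; limma, adjusted p = 0.000117) and by 0.90 on the low-fat diet (SE 0.19, adjusted p = 0.0344). Its interaction of 1.15 (SE 0.26, 95% interval 0.60 to 1.71) was the largest in size among the 22 shared probes and was not called (limma, unadjusted p = 0.000408, adjusted p = 0.938). The low-fat call was lost without any of the 3 low-fat PFNA arrays or without low-fat control replicate 1 or replicate 3 (highest adjusted p = 0.13). The probes of Cyp4a12a and Cyp4a12b may each read RNA of the other gene, so which copy changed is uncertain.

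Krt23, a keratin found in stressed liver, had 7.75, 7.60 and 8.49 in the high-fat PFNA arrays, against 5.37, 5.30 and 6.14 in the high-fat controls, and 7.64, 7.60 and 7.59 in the low-fat PFNA arrays, against 5.83, 5.62 and 6.25 in the low-fat controls. Slc35f2, a membrane transporter, had 7.51, 7.60 and 7.35 in the high-fat PFNA arrays, against 6.17, 4.69 and 4.92 in the high-fat controls, and 7.29, 7.43 and 7.41 in the low-fat PFNA arrays, against 5.06, 5.89 and 5.88 in the low-fat controls. Both genes had PFNA values well above all control values on each diet, and the PFNA arrays of the 2 diets overlapped. Krt23 rose by 2.34 and Slc35f2 by 2.23 on the high-fat diet (limma, adjusted p = 0.00171 and 0.00193), and by 1.71 and 1.77 on the low-fat diet (adjusted p = 0.0125 and 0.0102). The interactions were 0.63 (95% interval −0.23 to 1.50) and 0.46 (−0.38 to 1.30). The low-fat call was lost for Krt23 without low-fat PFNA replicate 3 or low-fat control replicate 1 or 2 (highest adjusted p = 0.0723), and for Slc35f2 without low-fat PFNA replicate 3 (adjusted p = 0.0581).

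The remaining genes called on both diets were named after their values were seen. Lipases were among them: Pla2g6, a phospholipase, rose by 1.19 on the high-fat diet and 0.90 on the low-fat diet, Pnpla2, the first lipase of triglyceride breakdown, by 0.85 and 0.70, and Lipe, the hormone-sensitive lipase, by 0.79 and 0.56. Alpl, an alkaline phosphatase, rose by 1.37 and 0.98, Slc18a1, a vesicular amine transporter, by 0.89 and 1.17, and Cisd3, a mitochondrial iron-sulfur protein, by 0.78 and 0.84, in the same order of diets. A second Cisd3 probe rose by 0.79 on the high-fat diet (limma, adjusted p = 0.00913, and 0.0594 without high-fat PFNA replicate 1) and differed by 0.40 on the low-fat diet (adjusted p = 0.131), with an interaction of 0.39 (95% interval 0.04 to 0.74), so the probes of this gene disagree. Sulf2, which trims sulfate from heparan sulfate, rose by 1.35 and 0.68, and its interaction of 0.67 (95% interval 0.23 to 1.10) was one of 4 among the 22 probes whose interval left out 0. The others were Cyp4a12b, Gsta4 and a probe with no gene name here. Adck5 rose by 0.72 and 0.79, and Ptma, the only named gene lower on both, fell by 0.72 on the high-fat diet and by 0.65 on the low-fat diet. Both calls held without each of the 12 arrays for Pla2g6, as did the high-fat calls of Alpl and Sulf2 and the low-fat calls of Slc18a1 and Cisd3. The high-fat call was lost without high-fat PFNA replicate 1 for Lipe and Cisd3 (adjusted p = 0.0584 and 0.0534), and that of Pnpla2 also without high-fat PFNA replicate 2 or high-fat control replicate 2 or 3 (highest adjusted p = 0.0978). The high-fat calls of Slc18a1, Adck5 and Ptma held in only 3, 2 and 4 of the 12 fits (highest adjusted p = 0.137, 0.127 and 0.135), and were lost without any high-fat control, without high-fat PFNA replicate 1 or 3, and in other fits. The low-fat call was lost without low-fat PFNA replicate 3, and in other fits, for Alpl, Pnpla2, Lipe, Adck5, Ptma and Sulf2 (highest adjusted p = 0.0807, 0.105, 0.119, 0.0647, 0.157 and 0.187). A further pair of probes read several Cyp3a genes at once, Cyp3a11 among them, and rose by 1.05 and 1.04 on the high-fat diet and by 0.87 and 0.84 on the low-fat diet. The median size of the interaction over the 22 probes was 0.28, against median differences of 1.23 in size on the high-fat diet and 1.02 on the low-fat diet.

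**Figure D2:**
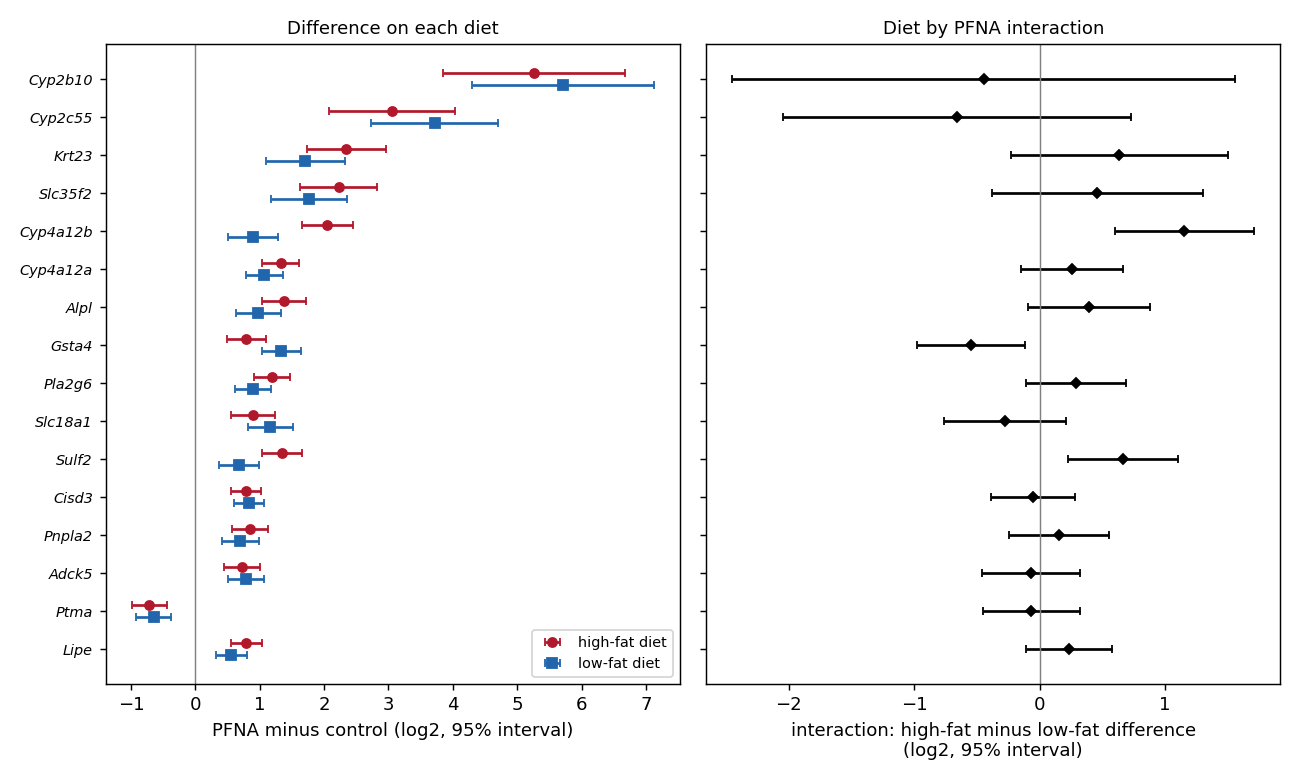
The 16 genes called for PFNA on both diets, with the PFNA minus control difference on each diet (left, high-fat diet as circles and low-fat diet as squares) and the diet by PFNA interaction (right), all in log2 with 95% intervals from limma. The interval of the interaction leaves out 0 for Cyp4a12b, Gsta4 and Sulf2, and it is widest for Cyp2b10.

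Of the genes called on the high-fat diet alone, Smad9, a signal carrier of bone morphogenetic proteins, had the largest named interaction. It had 7.40, 6.95 and 6.46 in the high-fat PFNA arrays, against 5.43, 5.21 and 5.35 in the high-fat controls. It had 6.88, 7.28 and 6.02 in the low-fat PFNA arrays, against 6.50, 6.67 and 6.42 in the low-fat controls. The groups were apart on the high-fat diet and overlapped on the low-fat diet, and the high-fat controls were the lowest group. Smad9 rose by 1.61 on the high-fat diet (SE 0.26; limma, adjusted p = 0.0204) and differed by 0.20 (SE 0.26, adjusted p = 0.829) on the low-fat diet, with an interaction of 1.41 (SE 0.37, 95% interval 0.62 to 2.20, adjusted p = 0.942). The high-fat call was lost without high-fat PFNA replicate 1 or 2 or high-fat control replicate 2 or 3 (highest adjusted p = 0.113).

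Cep85, a centrosomal protein, had 6.82, 6.83 and 6.58 in the high-fat PFNA arrays, against 7.39, 7.69 and 7.43 in the high-fat controls. It had 7.14, 7.14 and 7.12 in the low-fat PFNA arrays, against 6.89, 7.09 and 6.82 in the low-fat controls. The order of PFNA and control was thus opposite on the 2 diets, without overlap on either. Cep85 fell by 0.76 on the high-fat diet (SE 0.14; limma, adjusted p = 0.0375), a call that held in only 3 of the 12 fits without 1 array, and differed by 0.20 on the low-fat diet (adjusted p = 0.589). Those 3 fits left out low-fat PFNA replicate 3, low-fat control replicate 2 and low-fat control replicate 3, and the highest adjusted p was 0.135. The interaction was −0.96 (SE 0.19, 95% interval −1.36 to −0.56, adjusted p = 0.938).

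Genes called on the low-fat diet alone included more P450s. Cyp2b9, a P450 that is normally female-predominant in mouse liver, had 11.45, 12.01 and 12.16 in the high-fat PFNA arrays, against 11.68, 11.52 and 11.96 in the high-fat controls. It had 10.76, 11.32 and 11.97 in the low-fat PFNA arrays, against 7.93, 9.35 and 10.07 in the low-fat controls. The low-fat controls were the only low group, below each of the other 9 arrays. Cyp2b9 rose by 2.23 on the low-fat diet (SE 0.41; limma, adjusted p = 0.0205) and differed by 0.15 on the high-fat diet (SE 0.41, adjusted p = 0.944), with an interaction of −2.08 (SE 0.59, 95% interval −3.32 to −0.84, adjusted p = 0.942). The low-fat call was lost without low-fat PFNA replicate 2 or 3 or low-fat control replicate 1 or 2 (highest adjusted p = 0.12).

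Cyp17a1, an enzyme of steroid hormone synthesis, had 7.01, 6.99 and 6.80 in the high-fat PFNA arrays, against 8.52, 7.15 and 7.20 in the high-fat controls. It had 5.86, 6.63 and 6.82 in the low-fat PFNA arrays, against 8.37, 8.49 and 8.81 in the low-fat controls. PFNA values were below control values on both diets, and a single high-fat control, replicate 1, was as high as the low-fat controls. Cyp17a1 fell by 2.12 on the low-fat diet (SE 0.31; limma, adjusted p = 0.00614), a call that held without each of the 12 arrays, and its difference on the high-fat diet was −0.69 (SE 0.31, adjusted p = 0.482). The interaction of 1.43 (95% interval 0.51 to 2.35, adjusted p = 0.942) lay between 1.14 and 1.88 when 1 array was left out.

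Gstm3, a glutathione transferase of the NRF2 and CAR responses, rose by 3.79 on the low-fat diet (SE 0.65; limma, adjusted p = 0.0128). Its values there were 8.71, 8.31 and 9.95 with PFNA, against 4.68, 5.15 and 5.78 in controls. On the high-fat diet they were 7.85, 9.26 and 8.20 with PFNA, against 7.54, 5.57 and 6.67 in controls, also without overlap but with a difference of 1.84 that was not called (adjusted p = 0.336). The interaction was −1.94 (95% interval −3.88 to −0.01), and the low-fat call was lost without low-fat PFNA replicate 3 or low-fat control replicate 1 or 2 (highest adjusted p = 0.0935).

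Further calls on the low-fat diet alone included a transporter, a coactivator of energy metabolism and a T cell gene. Abcc3, a transporter that exports conjugates and bile acids into blood, rose by 0.95 on the low-fat diet (limma, adjusted p = 0.00439) and differed by 0.34 on the high-fat diet (adjusted p = 0.397), with an interaction of −0.62 (95% interval −1.01 to −0.23). Ppargc1a, a coactivator of mitochondrial and fasting genes, fell by 1.10 on the low-fat diet (adjusted p = 0.0163), and its difference on the high-fat diet was −0.37 (adjusted p = 0.571), with an interaction of 0.73 (95% interval 0.15 to 1.31). Themis, a T cell gene, rose by 1.76 on the low-fat diet (adjusted p = 0.045) and differed by 0.27 on the high-fat diet (adjusted p = 0.879), with an interaction of −1.49 (95% interval −2.63 to −0.36). The call of Abcc3 held without each of the 12 arrays. That of Ppargc1a was lost without low-fat PFNA replicate 1 or 3 or low-fat control replicate 2 or 3 (highest adjusted p = 0.0766). That of Themis held in only 3 of the 12 fits, those without high-fat PFNA replicate 1, high-fat PFNA replicate 3 or low-fat PFNA replicate 2 (highest adjusted p = 0.204). None of the 15 measured lymphocyte markers was called on either diet, and 11 of them had a mean signal under 5. Their median PFNA difference on the low-fat diet was 0.07.

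The smallest unadjusted p of all probes, 4.84e-05, belonged to 5730420D15Rik, a gene known by a clone name, with an interaction of 1.12 (limma, adjusted p = 0.938). Leaving out clone names, predicted genes, small RNAs and segments of immune receptors, the 12 genes with the smallest unadjusted p in each direction, taken because none was called, had unadjusted p-values of 1e-04 to 0.00148 and adjusted p-values of 0.938 to 0.942. Of these 24 genes, 11 had a mean signal under the median of all probes, 4.48, and among them were Vmn1r94, Tas2r139 and Olfr362, genes of chemosensory receptors. In 22 of the 24 the difference had opposite signs on the 2 diets, against 14026 of all 34472 probes. The control arrays of the diets did not overlap in 21 of the 24 (10.4% of all probes), and the PFNA arrays in 7 (9.48% of all probes). PFNA and control arrays were apart on the high-fat diet in 14 (13.7% of all probes) and on the low-fat diet in 21 (19.4%). The genes were chosen on this contrast, so these counts are a description only.

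Slc28a2, a concentrative nucleoside transporter, had the smallest p of these 24 genes. Its signals were 4.66, 4.85 and 4.57 in the high-fat PFNA arrays, against 4.36, 4.66 and 4.14 in the high-fat controls. They were 4.41, 3.84 and 4.15 in the low-fat PFNA arrays, against 5.08, 5.18 and 5.24 in the low-fat controls. The low-fat controls were above all other arrays, and the interaction was 1.34 (SE 0.27, 95% interval 0.78 to 1.90; limma, adjusted p = 0.938). Slc28a2 fell by 1.03 on the low-fat diet (adjusted p = 0.0192), a call lost without low-fat PFNA replicate 2 or 3 or any low-fat control (highest adjusted p = 0.0879).

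Etv5, a transcription factor of growth factor signalling, had 5.13, 5.43 and 4.79 in the high-fat PFNA arrays, against 5.29, 5.06 and 5.09 in the high-fat controls. It had 6.08, 5.78 and 5.60 in the low-fat PFNA arrays, against 4.63, 4.53 and 5.01 in the low-fat controls. The low-fat PFNA arrays were the highest of the 12. Etv5 rose by 1.10 on the low-fat diet (SE 0.18; limma, adjusted p = 0.0102), a call lost without low-fat control replicate 2 (adjusted p = 0.0536), and its interaction was −1.13 (SE 0.25, 95% interval −1.65 to −0.60, adjusted p = 0.938).

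Agxt, which detoxifies glyoxylate in liver peroxisomes, had 9.92, 9.75 and 9.73 in the high-fat PFNA arrays, against 9.39, 9.40 and 9.50 in the high-fat controls. It had 9.66, 9.81 and 9.59 in the low-fat PFNA arrays, against 10.03, 10.01 and 10.27 in the low-fat controls. PFNA was above control on the high-fat diet and below it on the low-fat diet, and the PFNA arrays of the diets overlapped. The differences, 0.37 and −0.42, were not called (limma, adjusted p = 0.398 and 0.197), and the interaction was 0.79 (95% interval 0.36 to 1.22, adjusted p = 0.942).

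Steap4, a metalloreductase of the inflammatory response, showed the opposite order, with 9.04, 8.94 and 8.75 in the high-fat PFNA arrays, against 9.47, 10.30 and 9.86 in the high-fat controls. It had 9.37, 9.01 and 9.37 in the low-fat PFNA arrays, against 8.66, 8.73 and 8.89 in the low-fat controls. Its interaction was −1.46 (95% interval −2.18 to −0.73; limma, adjusted p = 0.938). Ccnb2, a cyclin of mitosis, had an interaction of −1.40 (95% interval −2.11 to −0.69, adjusted p = 0.938), and its 3 high-fat controls (5.79 to 5.88) were all above its 3 low-fat controls (5.03 to 5.15), while its PFNA arrays overlapped between diets. Neither gene was called on either diet.

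**Figure D3:**
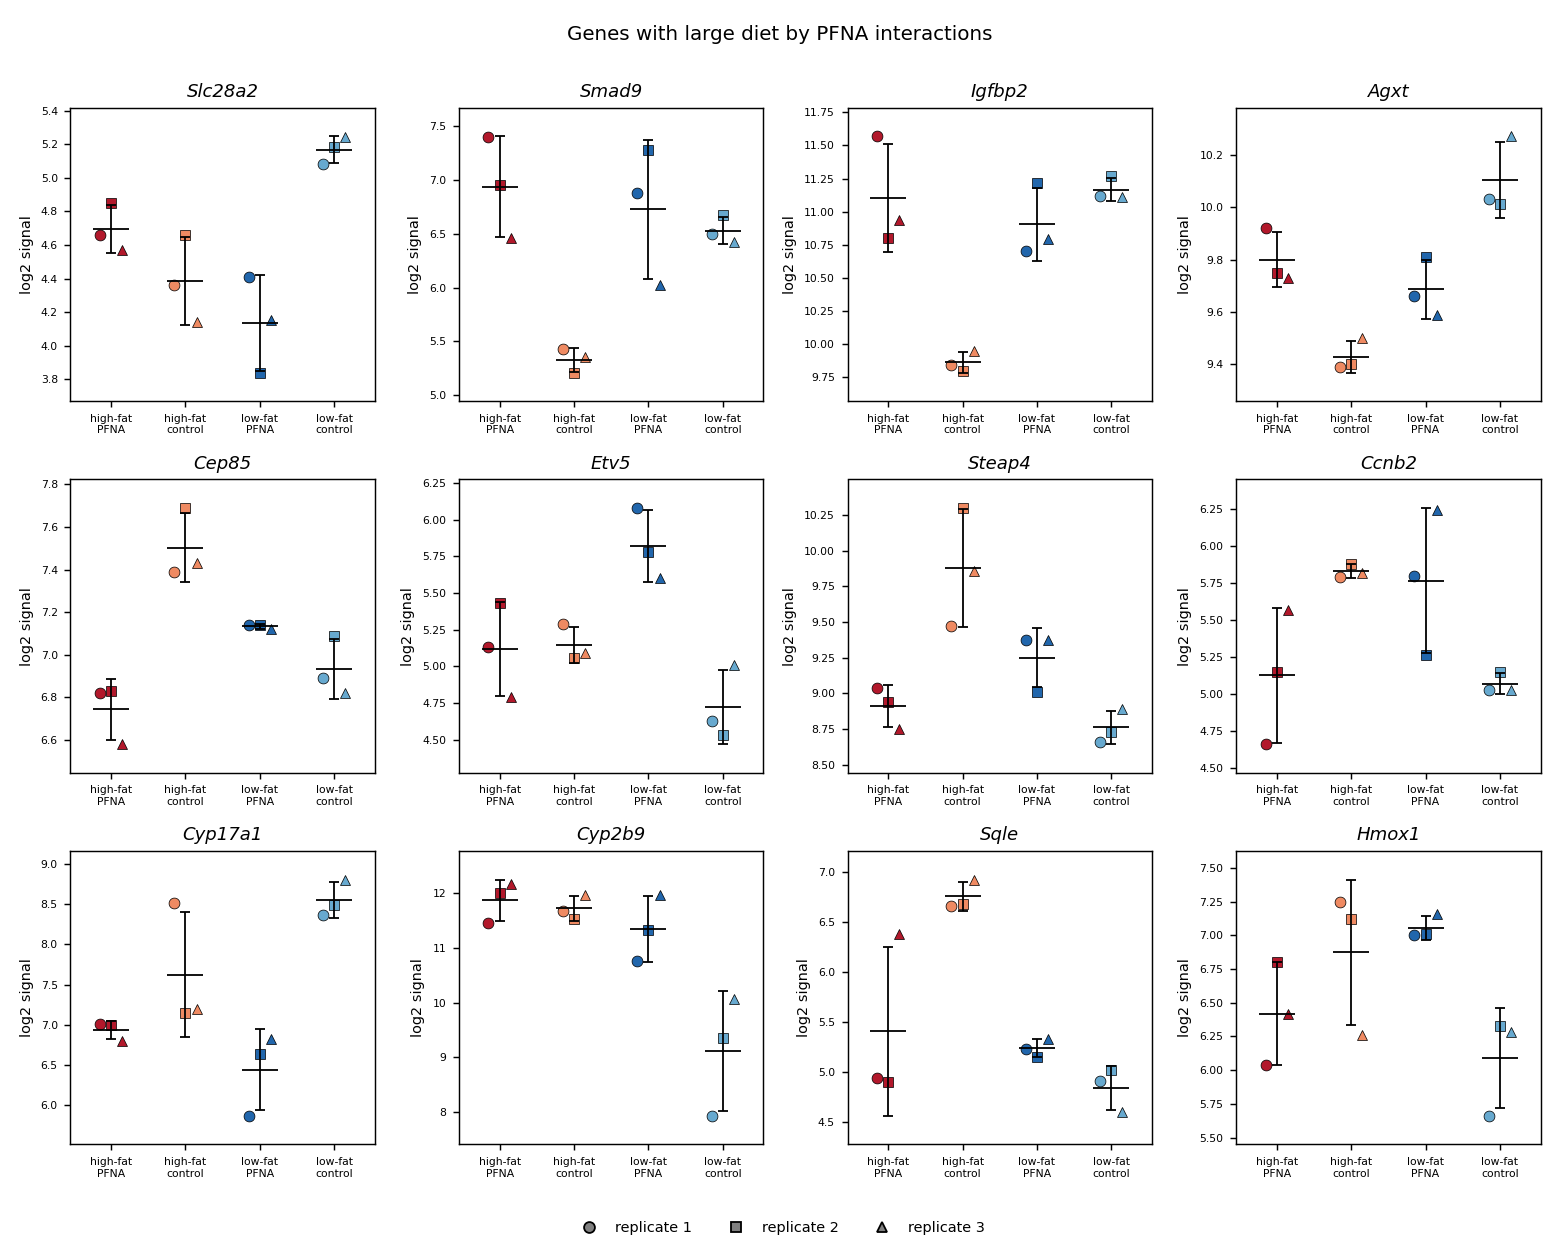
Log2 signal of 12 genes with large diet by PFNA interactions, by group. Points are single arrays, with the shape giving the replicate number, and bars are the mean and SD of 3 arrays. No interaction was called. For Cyp2b9, Smad9, Igfbp2, Agxt, Sqle, Steap4 and Ccnb2 the control arrays of the diets are apart and the PFNA arrays overlap.

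Genes of cholesterol synthesis and uptake leaned the same way, as did the stellate cell list and the erythroid list. Of the erythroid list only 3 of 11 genes were measured, with a median interaction of −0.14. All 20 measured genes of 26 listed for cholesterol had an interaction below 0, with a median of −0.53, against 0.00 over all probes, where 16918 of 34472 were below 0. None was called in the interaction or for PFNA on either diet. An unadjusted p under 0.05 in the lower direction was found for 5 of 20, against 2.73% of all probes. The median PFNA difference was −0.17 on the high-fat diet and 0.33 on the low-fat diet. The median signal of the list was 7.29, 7.53 and 7.82 in the high-fat PFNA arrays, against 7.87, 7.69 and 7.69 in the high-fat controls. It was 7.65, 7.54 and 7.61 in the low-fat PFNA arrays, against 6.85, 6.92 and 6.98 in the low-fat controls. Only the low-fat controls stood clear of the other groups. The median interaction was −0.54 without high-fat PFNA replicate 3 and lay between −0.58 and −0.47 when any 1 of the 12 arrays was left out.

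Sqle, squalene epoxidase, had 4.94, 4.90 and 6.38 in the high-fat PFNA arrays, against 6.66, 6.68 and 6.92 in the high-fat controls. It had 5.23, 5.15 and 5.33 in the low-fat PFNA arrays, against 4.91, 5.02 and 4.60 in the low-fat controls. PFNA values were lower than controls on the high-fat diet and higher on the low-fat diet, without overlap, and the divergent replicate 3 was the closest of its group to the controls. The interaction was −1.74 (SE 0.54, 95% interval −2.88 to −0.60; limma, adjusted p = 0.942), and −2.23 without that array (adjusted p = 0.95).

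Msmo1, a sterol demethylating enzyme, had 6.34, 6.45 and 7.51 in the high-fat PFNA arrays, against 7.66, 7.58 and 7.57 in the high-fat controls. It had 6.63, 6.18 and 6.92 in the low-fat PFNA arrays, against 6.11, 6.29 and 5.59 in the low-fat controls. The divergent replicate 3 was again the closest of its group to the high-fat controls. The interaction was −1.42 (SE 0.47, 95% interval −2.42 to −0.42; limma, adjusted p = 0.942) with all arrays. Interactions of other members, picked here for their size, were −1.33 for Nsdhl, −1.31 for Cyp51 and −1.16 for Hmgcs1, which makes the precursor of mevalonate. These are with all arrays, and replicate 3 was the highest high-fat PFNA array for each of these genes. Srebf2, the regulator of the pathway, had −0.51. At the other end Ebp had −0.01 and Hsd17b7 −0.05, so the members differed widely in size.

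The promoters of Hmgcs1 and Msmo1 are shown because members of this list leaned together, as RefSeq sequences of build GRCm38.p6 in the same window and with the same motifs in capitals.
Hmgcs1 (chr13:119690101-119690400, plus strand): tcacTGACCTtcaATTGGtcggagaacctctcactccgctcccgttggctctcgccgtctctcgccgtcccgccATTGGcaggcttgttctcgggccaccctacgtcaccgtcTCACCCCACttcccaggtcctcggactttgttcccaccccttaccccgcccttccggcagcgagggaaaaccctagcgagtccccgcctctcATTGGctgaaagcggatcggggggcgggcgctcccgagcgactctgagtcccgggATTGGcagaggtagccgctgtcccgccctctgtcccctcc
Msmo1 (chr8:64733529-64733828, minus strand): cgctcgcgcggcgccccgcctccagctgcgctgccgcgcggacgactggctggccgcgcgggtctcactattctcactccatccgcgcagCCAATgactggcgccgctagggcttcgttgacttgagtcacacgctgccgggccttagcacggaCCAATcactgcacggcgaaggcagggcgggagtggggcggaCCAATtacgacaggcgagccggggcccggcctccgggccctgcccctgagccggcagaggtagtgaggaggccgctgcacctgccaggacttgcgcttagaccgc
Hmgcs1 held 1 match to TCACNCCAC, 4 to CCAAT and 1 to AGGTCA, and Msmo1 held 0, 3 and 0. The table had 19 promoters for 16 genes of the list. CCAAT was in 15 of the 19 (78.9%, against 37.4% of all promoters), TCACNCCAC in 1 (5.26%, against 1.24%) and AGGTCA in 5 (26.3%, against 16.3%). A match is a description of these letters and not a binding site.

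**Figure D4:**
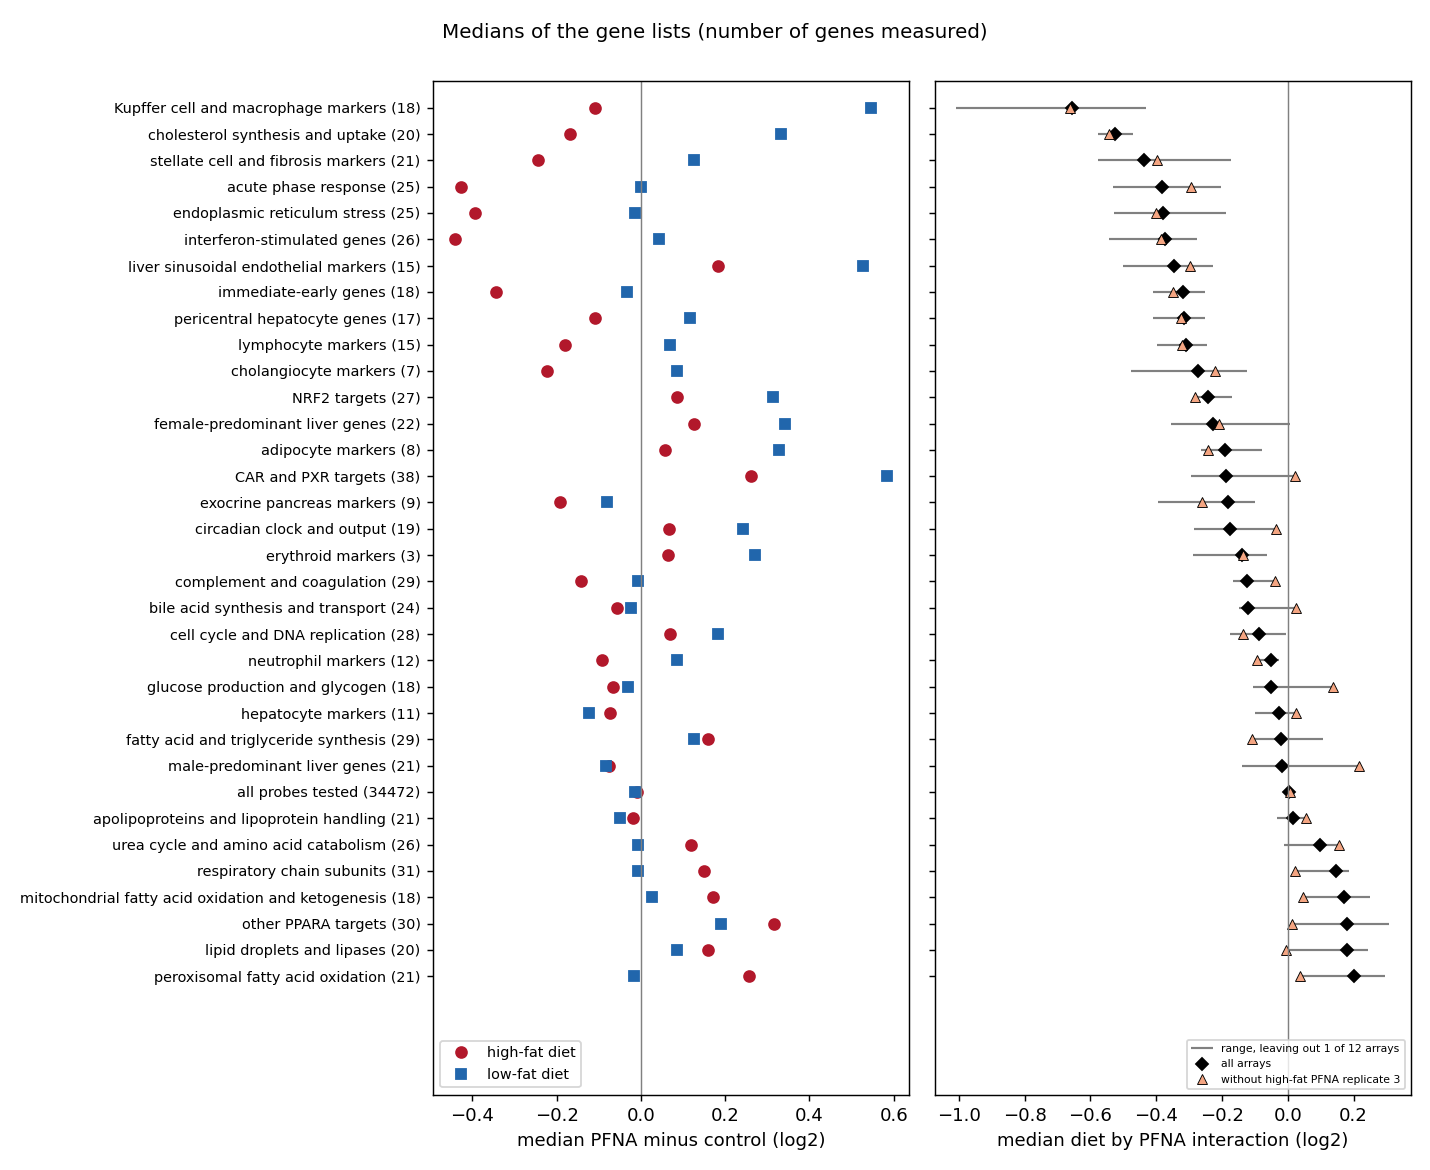
Medians of the 33 gene lists and of all probes. Left, median PFNA minus control difference (log2) on the high-fat diet (circles) and the low-fat diet (squares). Right, median interaction with all arrays (diamonds), without high-fat PFNA replicate 3 (triangles) and the range when 1 of the 12 arrays is left out (grey lines). The cholesterol list lies at −0.53 with a narrow range, and the lists of fatty acid oxidation move towards 0 without the divergent array.

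PPARA targets had small positive medians that depended on 1 array. The median interaction was 0.20 over 21 genes of peroxisomal fatty acid oxidation, 0.17 over 18 of mitochondrial oxidation and ketogenesis, and 0.18 over 30 other PPARA targets. Without high-fat PFNA replicate 3 these medians were 0.04, 0.05 and 0.01. For PFNA on either diet, no member of the oxidation lists was called, and 2 of the 30 other targets were, Cyp4a12a and Cyp4a12b, higher on both diets (0.0522% of all probes). The last median was also 0.31 without high-fat PFNA replicate 1 and 0.11 without high-fat control replicate 2.

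Ehhadh, the bifunctional enzyme of peroxisomal oxidation, had 11.70, 11.51 and 13.18 in the high-fat PFNA arrays, against 11.17, 11.05 and 11.13 in the high-fat controls. It had 11.21, 11.49 and 11.51 in the low-fat PFNA arrays, against 11.66, 11.31 and 11.29 in the low-fat controls. The divergent array was the highest of all 12, and without it the interaction was 0.51 instead of 1.03 (95% interval −0.16 to 2.22; limma, adjusted p = 0.943). Pdk4, which blocks glucose oxidation in fasting, had 7.24, 6.88 and 10.68 in the high-fat PFNA arrays, against 7.71, 7.47 and 7.16 in the high-fat controls. It had 7.20, 6.50 and 7.83 in the low-fat PFNA arrays, against 6.72, 7.61 and 6.57 in the low-fat controls. Its interaction was 0.61 (95% interval −1.81 to 3.03) with all arrays and −0.60 without the divergent one. Cidea, a lipid droplet protein, had 10.58 in that array and 4.07 to 7.89 in the other 11, and its interaction was 0.80 with it (95% interval −3.62 to 5.22) and −1.05 without it. The 8 measured adipocyte markers, Cidea among them, had a log2 summed signal of 8.03, 8.65 and 11.1 in the high-fat PFNA arrays, against 8.29 to 9.19 in the high-fat controls, and 8.36 to 8.79 in the low-fat PFNA arrays, against 7.8 to 7.95 in the low-fat controls. The divergent array was thus the highest for this list too, through Cidea and Fabp4, a fatty acid binding protein (8.77 there). Adipoq and Plin1, which define adipocytes, had 2.09 and 4.36 in that array, the lowest of the 12 for both. Both values lay below the median of all probes, 4.48, and 5 of the 8 markers had a mean signal under 5. The order of arrays at such low signals says little. The part of that array's divergence in these values was not tested beyond leaving it out.

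Acot1, a thioesterase that frees fatty acids from coenzyme A, kept more of its interaction. It had 10.12, 9.96 and 11.17 in the high-fat PFNA arrays, against 8.35, 8.64 and 8.85 in the high-fat controls. It had 9.55, 9.97 and 9.84 in the low-fat PFNA arrays, against 9.51, 9.36 and 9.27 in the low-fat controls. PFNA arrays were above controls on both diets, the high-fat controls were below the low-fat controls, and neither difference was called (1.80 with limma adjusted p = 0.0624 on the high-fat diet, and 0.41 with adjusted p = 0.709 on the low-fat diet). The interaction was 1.40 (SE 0.52, 95% interval 0.30 to 2.50, adjusted p = 0.942), and 1.02 without the divergent array. Cyp4a14, a standard PPARA marker, was near the top of the scale in all groups, with means of 13.28 ± 0.15 in high-fat PFNA arrays, 12.68 ± 0.10 in high-fat controls, 13.14 ± 0.10 in low-fat PFNA arrays and 12.97 ± 0.13 in low-fat controls (SD, n = 3 each), and its interaction was 0.43 (95% interval 0.04 to 0.82). Ppara itself had an interaction of 0.02 (95% interval −0.34 to 0.37).

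**Figure D5:**
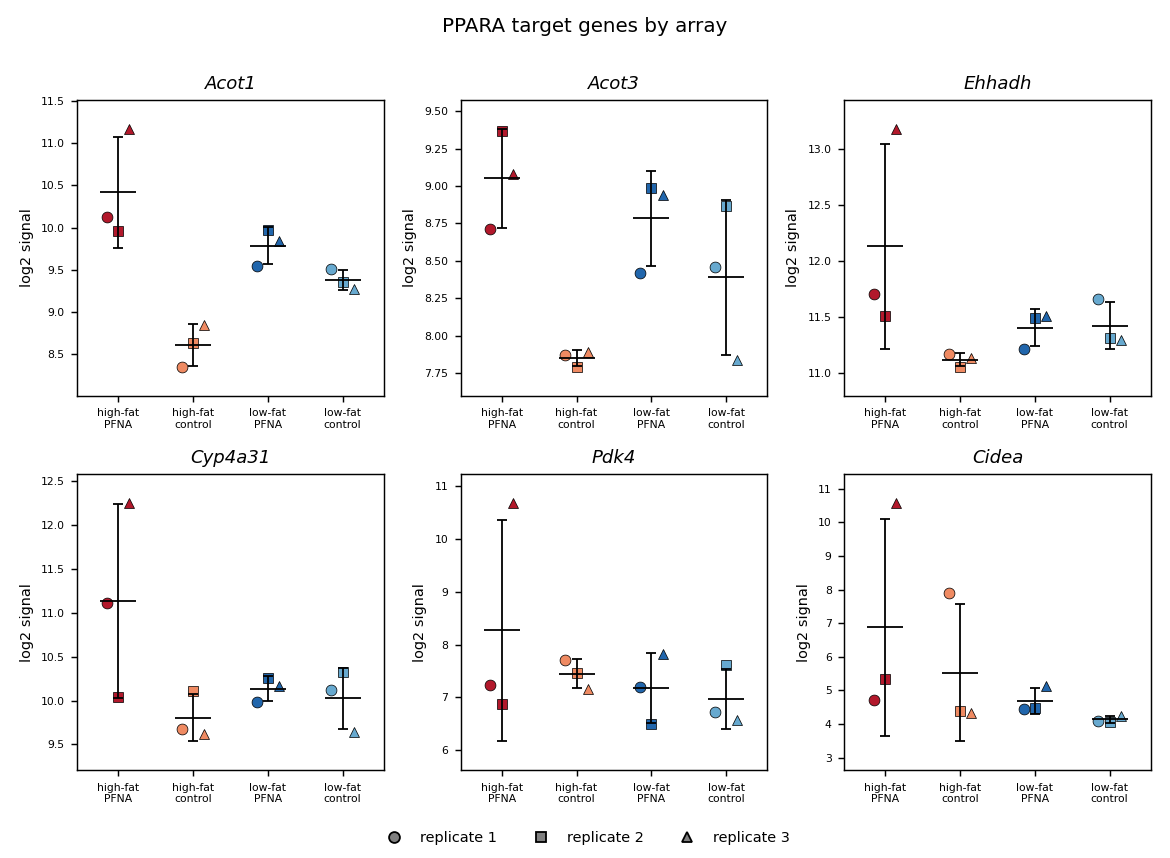
Log2 signal of 6 fatty acid oxidation and lipid droplet genes, all PPARA targets in mice, by group. Points are single arrays, with the shape giving the replicate number, and bars are the mean and SD of 3 arrays. Replicate 3 of PFNA on the high-fat diet (triangle) is the highest array for Acot1, Ehhadh, Cyp4a31, Pdk4 and Cidea.

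Of 38 measured targets of CAR and PXR, 4 were called higher for PFNA on the high-fat diet (Cyp2b10, Cyp2c55, Gsta4 and Ces2a), where 0.087% of all probes were. The high-fat call of Ces2a held in only 7 of the 12 fits without 1 array (limma, highest adjusted p = 0.127). Its low-fat difference of 0.89 was not called (limma, adjusted p = 0.0685). On the low-fat diet 8 were called higher, where 0.374% of all probes were (Cyp2b9, Cyp2b10, Cyp2c55, Cyp3a11, Cyp3a44, Gsta4, Gstm3 and Abcc3), and none was called lower. Their median difference was 0.26 on the high-fat diet and 0.58 on the low-fat diet. The median interaction was −0.19, with 24 of 38 members below 0, against 16918 of all 34472 probes. An unadjusted p under 0.05 in the lower direction was found for 6 of 38, against 2.73% of all probes. The median was 0.02 without high-fat PFNA replicate 3, −0.29 without high-fat PFNA replicate 2 and −0.29 without low-fat PFNA replicate 1. Nr1i3, the gene of CAR itself, had an interaction of −0.25 (95% interval −0.81 to 0.32). Cyp2c39, a P450 of the list named after its values were seen, had an interaction of −1.53 (limma, adjusted p = 0.942) and was called on neither diet.

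NRF2 targets, genes of the oxidative stress response, had 22 of 27 interactions below 0, against 16918 of all 34472 probes. Their median interaction was −0.24, and −0.28 without the divergent array. No member was called on the high-fat diet (0.113% of all probes), and 4 of 27 were called higher on the low-fat diet (0.374% of all probes): Nqo1, a quinone reductase, Ephx1, an epoxide hydrolase, Aox1, an aldehyde oxidase, and Gstm3. Their low-fat adjusted p-values were 0.0495, 0.0102, 0.00614 and 0.0128 in that order (limma), so Nqo1 was just under the threshold. The low-fat calls as a whole depended on single arrays, as given above. Hmox1, heme oxygenase, had 6.04, 6.80 and 6.42 in the high-fat PFNA arrays, against 7.25, 7.12 and 6.26 in the high-fat controls. It had 7.0, 7.01 and 7.16 in the low-fat PFNA arrays, against 5.66, 6.33 and 6.28 in the low-fat controls. Its interaction was −1.42 (SE 0.41, 95% interval −2.28 to −0.57; limma, adjusted p = 0.942), and it was called on neither diet (adjusted p = 0.654 on the high-fat diet and 0.131 on the low-fat diet).

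Markers of other liver cells also leaned below 0. Kupffer cell and macrophage markers had the lowest median of the 33 lists, −0.66, with 17 of 18 below 0, against 16918 of all 34472 probes. None was called, and 4 of 18 had an unadjusted p under 0.05 in the lower direction, against 2.73% of all probes. Their median PFNA difference was −0.11 on the high-fat diet and 0.55 on the low-fat diet. The log2 of their summed signal was 11.47 to 11.87 in the high-fat PFNA arrays, against 10.99 to 12.19 in the high-fat controls, and 11.93 to 12.16 in the low-fat PFNA arrays, against 11.21 to 11.83 in the low-fat controls. The lowest array of all was replicate 3 of the high-fat control, and the list's median interaction was −1.01 without it and −0.43 without replicate 1 of the same group. The defining markers Clec4f, Vsig4 and Cd5l were measured with mean signals of 8.65, 8.28 and 8.46. In whole liver, fewer cells of a type and less RNA per cell cannot be told apart.

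Cd68, a lysosomal protein of macrophages, had 7.87, 8.43 and 7.56 in the high-fat PFNA arrays, against 8.32, 8.07 and 7.24 in the high-fat controls. It had 8.59, 8.32 and 8.68 in the low-fat PFNA arrays, against 6.70, 7.19 and 7.90 in the low-fat controls. The interaction was −1.19 (95% interval −2.10 to −0.28; limma, adjusted p = 0.942), and the PFNA and control arrays were apart on the low-fat diet only. Sinusoidal endothelial markers had a median of −0.35 (14 of 15 below 0, against 16918 of all 34472 probes), and −0.23 without high-fat PFNA replicate 1. Among them Lyve1, a hyaluronan receptor, had −1.33 (95% interval −2.22 to −0.44). Stellate cell and fibrosis markers had a median of −0.44 (21 of 21 below 0), and −0.17 without replicate 1 of the high-fat control, whose Col1a1 signal of 8.41 was above the 5.83 to 6.85 of the other 11 arrays. For the endothelial list the log2 of the summed signal was 12.11 to 12.66 in the high-fat PFNA arrays, against 11.92 to 12.39 in the high-fat controls, and 12.58 to 12.63 in the low-fat PFNA arrays, against 11.91 to 12.32 in the low-fat controls. For hepatocyte markers it was 15.99 to 16.14 in the high-fat PFNA arrays, against 16.13 to 16.23 in the high-fat controls, and 16.07 to 16.14 in the low-fat PFNA arrays, against 16.16 to 16.23 in the low-fat controls. The part of cell composition in the lists below was not tested.

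Lists of inflammation and of endoplasmic reticulum stress also had most interactions below 0. Acute phase genes had a median interaction of −0.38 (24 of 25 below 0), interferon-stimulated genes −0.37 (24 of 26) and genes of endoplasmic reticulum stress −0.38 (23 of 25). Over all probes 16918 of 34472 were below 0. In the same order 4, 5 and 4 members had an unadjusted p under 0.05, all lower, against 2.73% of all probes. None was called in the interaction. Without high-fat PFNA replicate 3 the medians were −0.29, −0.39 and −0.40 in the order acute phase, interferon, stress. The acute phase median was −0.20 without high-fat control replicate 2. The stress median was −0.19 without low-fat PFNA replicate 1, and −0.25 without either high-fat control replicate 2 or low-fat control replicate 2. On the high-fat diet the median PFNA differences were −0.43, −0.44 and −0.39, in the order acute phase, interferon, stress. On the low-fat diet they were 0.00, 0.04 and −0.01. Orm3, an acute phase plasma protein, had the largest interaction in size of these lists. Unlike the median of its list, it was higher with PFNA on the low-fat diet. It had 7.53, 5.51 and 6.05 in the high-fat PFNA arrays, against 7.03, 7.82 and 7.10 in the high-fat controls. It had 7.47, 6.26 and 7.69 in the low-fat PFNA arrays, against 4.12, 6.01 and 5.44 in the low-fat controls. The interaction was −2.90 with a wide 95% interval of −4.90 to −0.91 (limma, adjusted p = 0.942). Cxcl10, an interferon-induced chemokine, had −1.34 (95% interval −2.15 to −0.52). For PFNA on the separate diets, 1 of the 26 interferon-stimulated genes was called, Igtp, lower on the high-fat diet (0.0261% of all probes). Igtp fell there by 0.89 (limma, adjusted p = 0.0439), a call that held in only 2 of the 12 fits without 1 array. Its difference on the low-fat diet was −0.62 (adjusted p = 0.0916).

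Igfbp2, a binding protein of insulin-like growth factors, had 11.57, 10.80 and 10.94 in the high-fat PFNA arrays, against 9.84, 9.80 and 9.95 in the high-fat controls. It had 10.70, 11.22 and 10.79 in the low-fat PFNA arrays, against 11.12, 11.27 and 11.11 in the low-fat controls. Only the high-fat controls were low, more than a log2 unit below the low-fat controls, and the difference on the high-fat diet of 1.24 was not called (limma, adjusted p = 0.141). The interaction was 1.50 (SE 0.44, 95% interval 0.58 to 2.42, adjusted p = 0.942). Urea cycle and amino acid genes, the list that holds Agxt, had a median interaction of 0.10. This median was −0.01 without high-fat PFNA replicate 1 and 0.16 without high-fat PFNA replicate 3, the ends of its range over the fits without 1 array. Interactions with an unadjusted p under 0.05 were found for 4 of 26, all higher, against 2.45% of all probes. Got1, the cytosolic aspartate aminotransferase, had 1.09 (95% interval 0.14 to 2.04).

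The same interaction can be read as the diet difference under PFNA minus that among controls. High-fat against low-fat under PFNA had 0 called probes (0%) and 1440 at an unadjusted p under 0.05 (4.18%; limma). High-fat against low-fat among controls had 1 called probe (0.0029%), that of 5730420D15Rik, lower on the high-fat diet, and 2222 at an unadjusted p under 0.05 (6.45%). The arrays of the diets did not overlap for 9.48% of probes under PFNA and for 10.4% among controls. Of the 22 probes called for PFNA on both diets, the diets did not overlap in 3 under PFNA and in 6 among controls, with median diet differences of 0.12 in size under PFNA and 0.29 among controls.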

How the data were processed

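The deposited table gives 1 value per probe and array for liver RNA extracted with Trizol and labelled with biotin, per the labels. The submitters' processing notes name Transcriptome Analysis Console without a version as what the authors used for the deposited log2 signal. How background was corrected and how arrays were normalized and probes summarized is not given there, nor is the base of the logarithm, taken as 2 from the range of the values. Such scaling could shift all values of an array together. Precision is limited by the number of arrays.

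Of 34472 probes, 23521 had 1 gene symbol, 1814 several and 9137 none in the platform annotation, and for 23328 of those with 1 symbol the Entrez number was found in RefSeq (GRCm38.p6). A gene with several probes was represented by the one of highest mean signal. A linear model with 1 mean for each of the 6 groups was fitted to 18 arrays with limma 3.58.1 in R 4.3.3 (12 residual and 5.21 prior degrees of freedom), with Benjamini-Hochberg adjustment over all probes and a call at an adjusted p under 0.05. No filter on signal was applied. The call counts of the interaction and of PFNA on each diet, the named interactions and the list medians were recomputed with 12 arrays only, quantile normalization, median centring, a mean signal of at least 5, a variance trend with robust moderation, array weights, the replicate number as a block, without the 2 divergent arrays, and without each of 12 arrays. Same-numbered samples of the 4 groups did not deviate together over all probes (correlations −0.05 to 0.05), and the main fit paired no samples. The PFOS groups were not checked for this, and a batch shared by only some samples or probes was not tested. Both divergent arrays carry the replicate number 3. The method was tested on simulated data.

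The 33 lists hold 714 genes, 631 of them measured and 40 in several lists. Members and lists were chosen with earlier results of these data known, and no list was tested as a set. Genes were named by rule, leaving out clone names, predicted genes, small RNAs and segments of immune receptors: the 12 with the smallest p in each direction of the interaction, up to 4 called or the 2 largest in each list, chosen key genes, the 6 largest called on both diets, and the 6 with the largest interaction among those called on 1 diet. Others are described as chosen after their values were seen or stand as list members.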

Additional observations from a re-analysis of the deposited data

How the results depend on the processing

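The interaction had 0 called probes in every alternative listed, with 832 probes at an unadjusted p under 0.05 among those with a mean signal of at least 5, and 1477 to 2148 when 1 array was left out. The count for PFNA on the high-fat diet, 39, was 59 with median centring, 147 with the signal filter, 120 with a variance trend, 73 with array weights, 148 without the 2 divergent arrays and 9 to 39 when 1 array was left out. The count on the low-fat diet, 195, was 302, 686, 388, 532, 593 and 26 to 278 in the same order. The filter reduces the number of probes tested. Elsewhere the cause was not tested. The replicate block gave 0, 47 and 208 calls for the interaction, the high-fat and the low-fat diet. The sample titles give the numbers only as biological replicates, and whether they stand for a batch is not stated. The fit of 12 arrays gave 51 and 197 calls, with 66.7% and 54.3% higher.

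Some interactions changed sign. Without the 2 divergent arrays they were 0.383 for Cyp2b10, 0.038 for Cyp2c55, −0.597 for Pdk4 and −1.052 for Cidea, and with quantile normalization that of Ppara was −0.017. When 1 array was left out, interactions ranged from −1.082 to 0.383 for Cyp2b10, −1.017 to 0.038 for Cyp2c55, −0.597 to 1.303 for Pdk4, −1.052 to 1.98 for Cidea, −0.143 to 0.303 for Cyp3a11, −0.137 to 0.013 for Ptma, −0.13 to 0 for Adck5, −0.12 to 0.02 for Cisd3 and −0.028 to 0.062 for Ppara. No list median with a size over 0.2 changed sign in these fits except that of female-predominant liver genes, 0.01 without high-fat PFNA replicate 1. Low signal limits precision: 11 of the 24 genes with the smallest p lay under the median signal.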
